A study of Mus musculus with 8 samples.

Results

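Transcripts of 9 G protein-coupled receptors were examined: Ffar1, Ffar2, Ffar3, Ffar4, Gpr119, Gpbar1, Casr, Glp1r and Sstr5. They were chosen by name as receptors for fatty acids, bile acids, calcium, GLP-1 and somatostatin. All 9 were matched by Ensembl gene ID among the 48440 genes of the table. RNA came from jejunal epithelial cells of 8 female mice carrying the Sox9-EGFP reporter on a C57BL/6J background. Every animal was born germ-free, in 4 littermate pairs named A to D. In each pair 1 animal stayed germ-free (Germfree), while the other was moved at 8 to 10 weeks of age to a conventional animal house, gavaged with fecal slurry (Conventionalized) and studied 2 weeks later. The move and the microbes cannot be told apart. Sorting removed cells stained by Sytox-blue or for CD31, CD45 or Annexin-V, and kept those with a low reporter signal, a crypt fraction known to be rich in stem cells. Sox9 reached 378 ± 109 CPM in Conventionalized and 246 ± 82.7 in Germfree libraries (SD, n = 4, limma adjusted p = 0.241). The stem cell gene Lgr5 was at 263 ± 140 and 67.1 ± 36.9 CPM, with overlapping ranges (limma adjusted p = 0.0397). Of 10 stem cell markers tested, Lgr5 alone had an adjusted p under 0.05, against 4.92% of all genes.

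These receptors let gut epithelial cells read the contents of the lumen and the hormones around them. They are best known from enteroendocrine cells, the scattered hormone-secreting cells of the epithelium, where fatty acids, bile acids and amino acids acting on them trigger release of GLP-1, GIP, CCK and PYY. Ffar1 and Ffar4 bind long-chain fatty acids, Ffar2 and Ffar3 bind the short-chain fatty acids that gut bacteria make by fermentation, and Gpr119 binds oleoylethanolamide and related lipids. Gpbar1, also called TGR5, binds bile acids, and Casr senses extracellular calcium and amino acids. Glp1r is the receptor of the incretin GLP-1, and Sstr5 is one of the receptors through which somatostatin restrains hormone release.

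Ffar1, Ffar2 and Ffar3 are neighbours on mouse chromosome 7 (GRCm38), all on the minus strand. Ffar2 spans 30818348 to 30823775, Ffar3 30854330 to 30856178 and Ffar1 30857390 to 30861564, so only 1211 bases separate Ffar3 from Ffar1. The sequences before the annotated starts of Ffar1 and Ffar3 are shown because these genes lie side by side. They come from RefSeq (GRCm38.p6), end at the base before the GENCODE gene start, and are written 5′ to 3′ on the minus strand. Capitals mark matches, on either strand, to CAGATG or CAGCTG, 2 forms of the E-box that basic helix-loop-helix factors such as Neurod1 can bind.
Ffar1, chr7:30861565-30861720: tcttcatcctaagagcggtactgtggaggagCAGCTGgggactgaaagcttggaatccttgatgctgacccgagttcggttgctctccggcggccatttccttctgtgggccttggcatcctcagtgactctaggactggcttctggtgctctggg
Ffar3, chr7:30856179-30856428: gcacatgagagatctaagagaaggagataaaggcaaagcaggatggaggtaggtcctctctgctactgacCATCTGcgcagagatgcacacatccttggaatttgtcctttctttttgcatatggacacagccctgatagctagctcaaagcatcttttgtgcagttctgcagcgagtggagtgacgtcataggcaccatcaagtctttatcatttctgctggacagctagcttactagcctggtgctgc
Among 32851 RefSeq windows of 250 bases before a start, 25.5% held CAGATG or CAGCTG. The full 250-base window of Ffar1 held 2 matches and that of Ffar3 held 1, while those of Ffar2, Ffar4, Gpr119, Gpbar1, Casr and Glp1r held 0. A match of letters is a description and not a binding site. No window was at hand for Sstr5.

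In Germfree animals 5 of the 9 receptors had higher transcript levels than in Conventionalized animals: Glp1r, Sstr5, Gpr119, Ffar2 and Ffar1. The differences ran from 3.55-fold for Ffar1 to 7.20-fold for Glp1r. Gpbar1, Casr, Ffar3 and Ffar4 did not pass the test, and 0 receptors were higher in Conventionalized animals. These counts are from limma on all 18340 genes that reached 1 CPM in 4 or more libraries, a fit that tests all 9 receptors. CPM is here the deposited signal scaled to the library total with TMM factors, which adjust for composition. Called means a Benjamini-Hochberg adjusted p under 0.05, and n = 4 animals a group. In that fit 2.91% of all genes were called, 2.34% lower and 0.567% higher in Conventionalized animals. For 6 of the 9 receptors, the 5 called and Gpbar1, every Conventionalized library lay below every Germfree library, as for 5.88% of all genes in that fit. In bulk RNA, fewer cells of a type and less RNA per cell cannot be told apart.

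The authors set a minimum of 10 CPM, and with it in at least 4 libraries 10053 genes were tested, of which 4.92% were called, 3.76% lower and 1.16% higher in Conventionalized animals. With the littermate pair as a block 13.1% were called, 5.02% lower and 8.08% higher, and the receptors called were the same 5. Ffar1, Ffar2, Ffar4, Gpr119, Glp1r and Sstr5 entered this fit, and it made the same 5 calls. Gpr119 entered it through its 4 Germfree libraries alone, so there it could only be called lower in Conventionalized animals. Glp1r entered through its 4 Germfree libraries and 1 Conventionalized library. Fold changes below are log2 of Conventionalized over Germfree on the log2(CPM + 0.5) scale, which understates changes of low genes. Over all genes their median was 0.32 at the 10 CPM minimum and 0.03 at the 1 CPM minimum. Adjusted p-values are from the 10 CPM fit unless another is named.

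**Figure D1:**
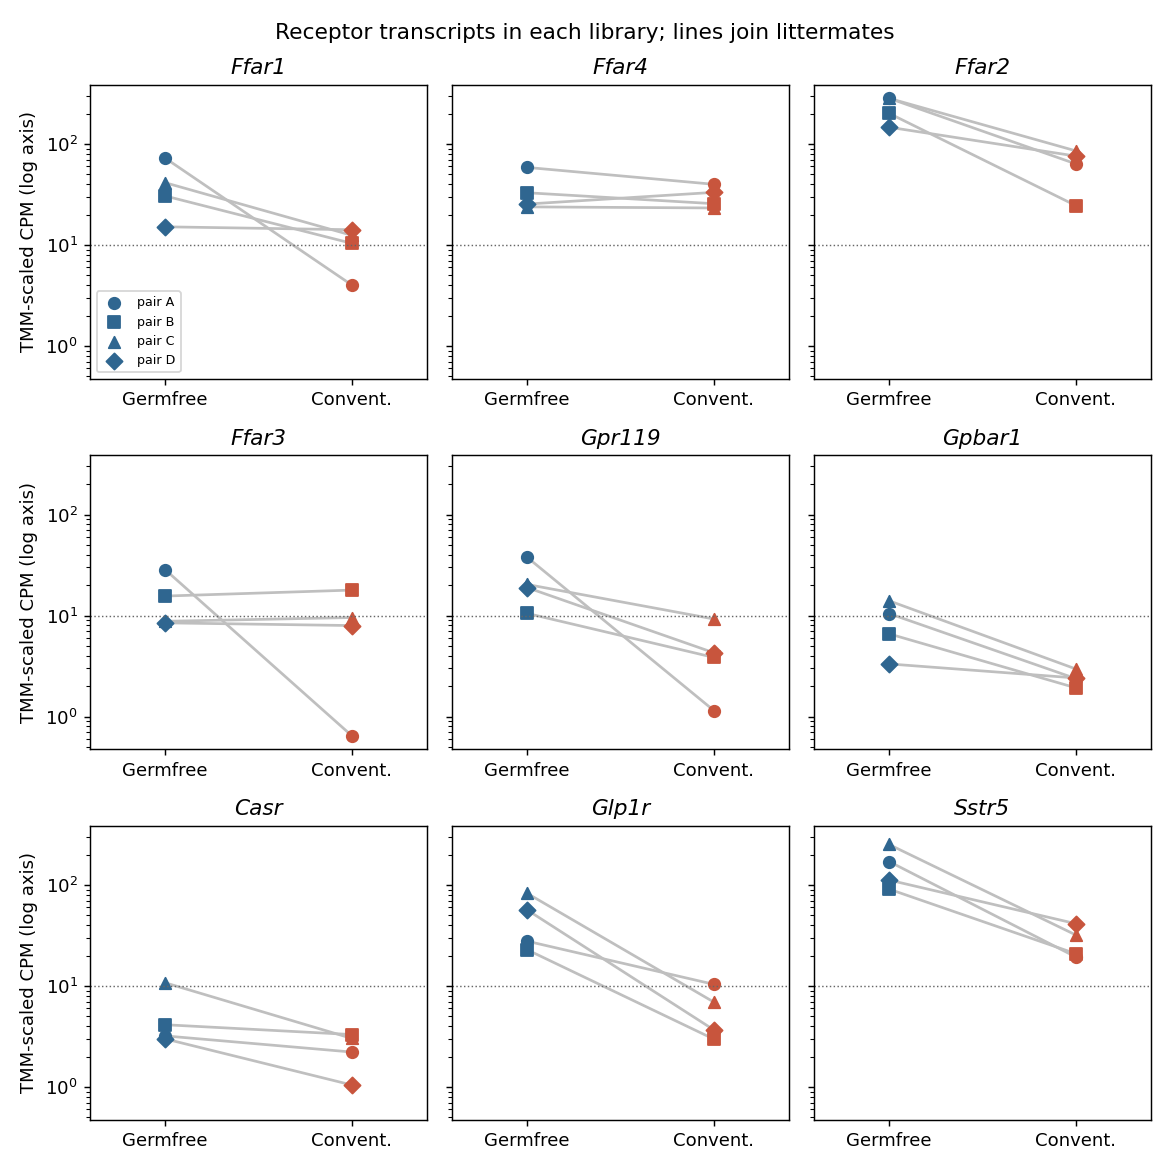
TMM-scaled CPM (log axis) of each receptor in the 4 Germfree and 4 Conventionalized libraries, with lines joining littermates, shapes for pairs A to D and a dotted line at 10 CPM. In 6 of the 9 panels every Conventionalized point lies below every Germfree point, and the groups overlap for Ffar3, Ffar4 and Casr.

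All 9 receptors were detectable in each library. A single read was worth 0.0669 to 0.128 CPM, so a floor of 3 reads lay between 0.201 and 0.383 CPM, and all 72 values were above it. The lowest was Ffar3 in the Conventionalized library of pair A, at about 7.87 reads. Glp1r, Ffar1, Ffar4, Gpr119 and Gpbar1 were whole multiples of the read step in all 8 libraries, with 31 to 722 reads for Glp1r and 20 to 122 for Gpbar1.

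Compared per kilobase of annotated exon in Germfree animals, Ffar2 was the most abundant receptor at 82.1 ± 24.1 CPM per kb (SD, n = 4). Sstr5 followed at 57.3 ± 26.4 and Ffar4 at 25.2 ± 11.5 CPM per kb. Ffar2 overlapped Sstr5, and Sstr5 overlapped Ffar4, over the 4 libraries, although the lowest Ffar2 value, 52.6, lay above the highest Ffar4 value, 41.9. Gpr119 (9.64 ± 5.05), Ffar1 (9.57 ± 5.82), Ffar3 (8.29 ± 5.06), Glp1r (8.19 ± 4.80) and Gpbar1 (7.99 ± 4.32 CPM per kb) were not separable. Casr was lowest at 1.119 ± 0.784 CPM per kb, and its highest library (2.28) lay below the lowest value of each of those 5. In Conventionalized animals Ffar2 (22.4 ± 9.61) and Ffar4 (21.8 ± 5.41 CPM per kb) stood at like levels with overlapping ranges. Sstr5 was then at 10.4 ± 3.79 CPM per kb, below each Ffar4 library.

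Among receptors for long-chain fatty acids, Ffar1 (ENSMUSG00000044453.5) fell in Conventionalized animals and Ffar4 did not pass the test. Ffar1 was at 4.01, 10.4, 12.5 and 14.2 CPM in the Conventionalized libraries (A to D), and at 72.6, 30.6, 41.4 and 15.2 CPM in the Germfree ones. The groups did not overlap, but in pair D the littermates were nearly level. The log2 fold change was -1.83 (SE 0.48, adjusted p = 0.0425). Within pairs the log2 difference ran from -4.02 in pair A to -0.09 in pair D. This call was fragile: it was lost in 8 of 18 alternative fits. Adjusted p was 0.0665 with no filter, 0.0525 with the littermate block at 1 CPM, and 0.119, 0.0987, 0.0953 and 0.0548 when Conventionalized A, B, C or D was left out. It was 0.111 and 0.0622 when Germfree A or C was left out.

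Ffar4 (ENSMUSG00000054200.6, chromosome 19, 38097071 to 38114263) was at 39.95, 25.7, 23.3 and 33.2 CPM in Conventionalized and 58.7, 32.9, 23.9 and 25.5 CPM in Germfree libraries of pairs A to D. The ranges overlapped almost entirely. Its log2 fold change was -0.14 (SE 0.33, adjusted p = 0.789). The 95% interval at the 1 CPM minimum, from -0.85 to 0.57, does not reach the fold change of any of the 5 receptors that fell. It narrowly overlaps the interval of Ffar1, -2.82 to -0.84. Whether Ffar4 differs from those 5 receptors was not tested directly. The genes closest to Ffar4 over the 8 libraries were Ndel1, Tprgl and Atp6v1h (Pearson r 0.96, 0.95 and 0.95). For Ffar1 they were 1110032F04Rik, Slc22a17 and Otulinl (r 0.99, 0.98 and 0.97). These correlations, here and below, describe 8 libraries that include both conditions and carry no test.

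Of the short-chain fatty acid receptors, Ffar2 fell in Conventionalized animals and Ffar3 did not pass the test, and the difference between them was not tested. Ffar2 (ENSMUSG00000051314.11) was at 63.6, 24.6, 85.7 and 76.0 CPM in the Conventionalized libraries (A to D). In the Germfree libraries it was at 284, 201, 284 and 147 CPM, so the lowest Germfree value was well above the highest Conventionalized one. It was 3.88-fold higher in Germfree animals (log2 fold change -1.96, SE 0.39, adjusted p = 0.013) and was called in all 18 alternative fits. Its closest genes were Cwh43, Chga and Serpinf2 (r 0.995, 0.992 and 0.991), of which Chga encodes chromogranin A, a granule protein of enteroendocrine cells.

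Ffar3 (ENSMUSG00000019429.7) was at 0.644, 17.9, 9.56 and 7.96 CPM in Conventionalized and 28.5, 15.6, 8.77 and 8.46 CPM in Germfree libraries of pairs A to D. Only pair A separated the conditions widely (log2 difference -4.66), while pairs B, C and D lay between -0.08 and 0.19. At the 1 CPM minimum the log2 fold change was -1.11 (SE 0.70, 95% interval -2.60 to 0.38, limma adjusted p = 0.341). That interval contains the fold changes of Ffar1 and Ffar2. With Conventionalized A left out, a choice made after its value was seen, the difference was -0.27 (exact permutation p = 0.657). The closest genes to Ffar3 were Sh2d6, Sh2d7 and Ly6g6f (r 0.99, 0.98 and 0.97).

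Markers of tuft cells, chemosensory cells of the epithelium, moved with Ffar3. The 12 tuft markers summed to 119, 950.1, 470.3 and 363 CPM in the Conventionalized libraries (A to D) and to 1058, 710.0, 394 and 631 CPM in the Germfree ones. The marker sum and Ffar3 were both lowest in the Conventionalized library of pair A and highest in the Germfree library of pair A. Of 10 tuft markers tested 0 were called, against 4.92% of all genes. Ffar3 came to 16.6 ± 7.58 CPM per 1000 CPM of tuft markers in Conventionalized and 21.1 ± 5.62 in Germfree animals, and the log2 difference on this scale was -0.29 (exact permutation p = 0.486). This scale was chosen after the likeness was seen.

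**Figure D2:**
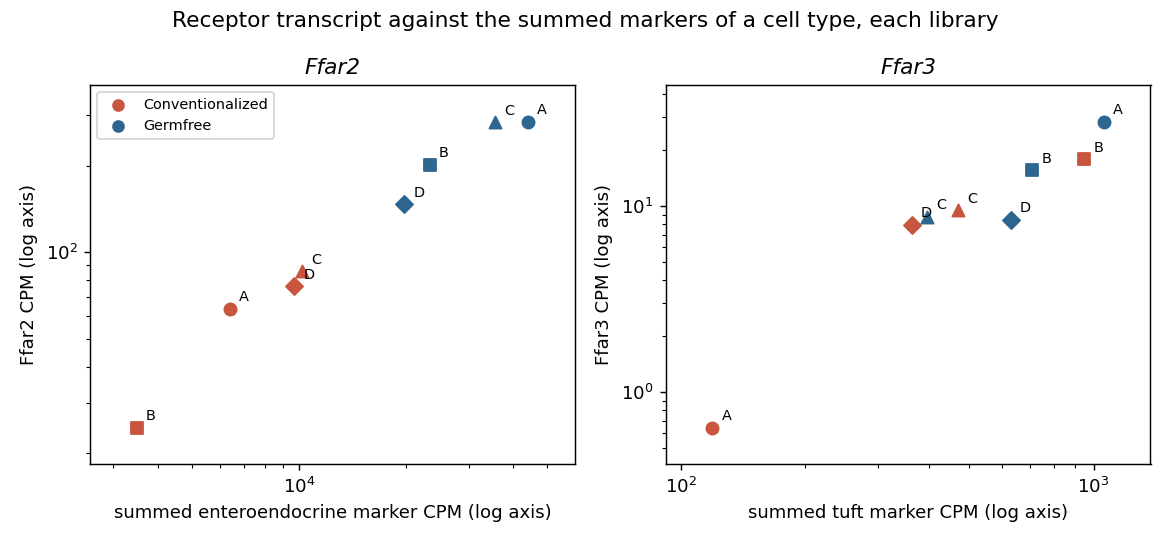
CPM of Ffar2 against the summed enteroendocrine markers (left) and of Ffar3 against the summed tuft markers (right), 1 point per library with its pair letter, all axes logarithmic. Ffar2 separates into a Conventionalized group of up to 85.7 CPM and a Germfree group from 147 CPM, while for Ffar3 the conditions mix and the Conventionalized library of pair A stands alone at 0.644 CPM.

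Gpr119 (ENSMUSG00000051209.3, chromosome X, 48667979 to 48674478), the oleoylethanolamide receptor, was at 1.15, 3.85, 9.24 and 4.28 CPM in the Conventionalized libraries (A to D). In the Germfree libraries it was at 37.8, 10.5, 20.3 and 18.9 CPM. The groups did not overlap, although the Conventionalized library of pair C came close to the Germfree library of pair B. Gpr119 was 4.75-fold higher in Germfree animals (log2 fold change -2.25, SE 0.52, limma adjusted p = 0.0298 at the 1 CPM minimum). At the 10 CPM minimum the SE was 0.55 and the adjusted p 0.0313. Gpr119 entered that fit through its Germfree libraries alone, so it could be called in 1 direction only. The fits that follow use the 10 CPM minimum. Adjusted p was 0.0692, 0.0843 and 0.0555 when Conventionalized A, B or D was left out. Without any Germfree library it was below the 10 CPM minimum in the fit and was not tested. Its closest genes were Hap1, Acvrl1 and Gprc5c (r 0.98, 0.97 and 0.97).

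The bile acid receptor Gpbar1 (ENSMUSG00000064272.3, chromosome 1, 74278550 to 74279624) was low, at 2.37, 1.92, 2.96 and 2.41 CPM in Conventionalized libraries and 10.5, 6.59, 14.0 and 3.32 CPM in Germfree ones. Every Germfree value was above every Conventionalized value, by little in pair D. At the 1 CPM minimum its log2 fold change was -1.49 (SE 0.48, 95% interval -2.51 to -0.46). It did not pass after adjustment in that fit (limma adjusted p = 0.113) or with the littermate block at the same minimum (0.0754). The closest genes were Lrp11, Ghr, the growth hormone receptor, and Mapk8ip2 (r 0.99, 0.99 and 0.98).

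Casr (ENSMUSG00000051980.13, chromosome 16, 36493696 to 36562141), the calcium sensor, was at 2.22, 3.31, 3.03 and 1.05 CPM in Conventionalized libraries (A to D). Germfree libraries held 3.21, 4.14, 10.8 and 2.997 CPM, so the ranges overlapped and the Germfree library of pair C was far above the rest. The log2 fold change of -0.90 (SE 0.53, 95% interval -2.01 to 0.22) did not pass at the 1 CPM minimum (limma adjusted p = 0.312). The genes nearest to Casr were Pde1c, Synrg and Dennd4c (r 0.98, 0.97 and 0.97).

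The GLP-1 receptor Glp1r fell in Conventionalized animals. Glp1r (ENSMUSG00000024027.7, chromosome 17, 30901817 to 30940791) was at 10.4, 2.98, 6.93 and 3.68 CPM in Conventionalized and 27.8, 22.9, 82.9 and 56.8 CPM in Germfree libraries of pairs A to D. No library of one condition reached the range of the other. The log2 fold change was -2.85 (SE 0.47, adjusted p = 0.00587), with pairs between -3.78 and -1.38. This was the largest of the 9 estimates, but with library quality weights it was -2.34 against -2.53 for Gpr119, and their 95% intervals at the 1 CPM minimum overlapped (-3.82 to -1.88 and -3.35 to -1.15). Glp1r was called in all 16 alternative fits in which it could be tested. Among its closest genes were Trim3 and N4bp2l1 (r 0.99 for both).

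Sstr5 (ENSMUSG00000050824.11, chromosome 17, 25489875 to 25497288) was at 19.4, 20.9, 32.0 and 41.5 CPM in Conventionalized libraries (A to D). Germfree libraries held 171, 91.2, 252 and 112 CPM, without overlap. It was 5.27-fold higher in Germfree animals (log2 fold change -2.40, SE 0.36, adjusted p = 0.00577) and was called in all 18 alternative fits. Its closest genes were Kcnh6, a potassium channel, Syp, which encodes the vesicle protein synaptophysin, and Selenon (r 0.999, 0.994 and 0.994).

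**Figure D3:**
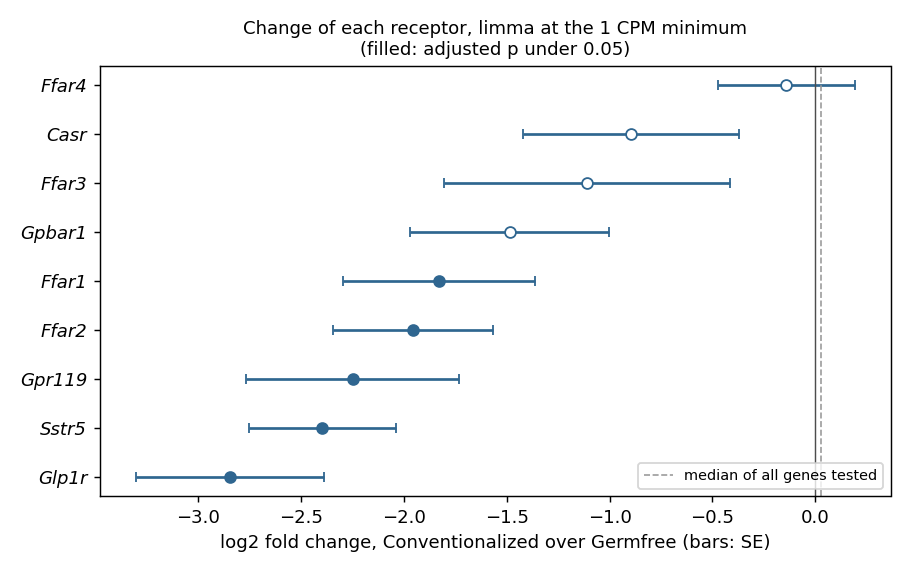
log2 fold change of Conventionalized over Germfree for each receptor from limma at the 1 CPM minimum, with bars for the SE, filled points for an adjusted p under 0.05 and a dashed line at the median of all genes tested. The 5 filled points lie between -2.85 for Glp1r and -1.83 for Ffar1, and Ffar4 lies nearest to 0 at -0.14.

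Enteroendocrine markers, and some enterocyte markers, were lower in the same libraries as the receptors that fell. The 22 markers, none of them a receptor examined here, summed to 6397, 3503, 10216 and 9691 CPM in the Conventionalized libraries (A to D). In the Germfree libraries they summed to 44109, 23333, 35578 and 19775 CPM. Of the 21 markers tested 18 fell in Conventionalized animals and 0 rose, and 0 of the 22 were at 0 in every library. The granule proteins Chga (log2 fold change -2.26, adjusted p = 0.0267) and Chgb (-1.98, adjusted p = 0.0323) and the transcription factor Neurod1 (-2.27, adjusted p = 0.00548) were among them. With 1 library left out Chga was called in 5 of 8 fits (adjusted p up to 0.0872), Chgb in 2 of 8 (up to 0.106) and Neurod1 in all 8. The called marker Nkx2-2 entered the fit through its Germfree libraries alone, with Conventionalized values up to 9.16 CPM, so it could only be called lower. Over all genes in the 10 CPM fit 3.76% fell and 1.16% rose. Of 9 enterocyte markers tested 3 fell: the sucrase gene Sis (log2 fold change -1.89, adjusted p = 0.0132), the peptide transporter Slc15a1 (-2.36, adjusted p = 0.00587) and the keratin Krt20 (-1.82, adjusted p = 0.0317). The enterocyte sum was 1427 to 4760 CPM in Conventionalized and 2441 to 5418 CPM in Germfree libraries. Of 9 Paneth cell markers tested 1 was called, Mptx2, higher in Conventionalized animals (3.11, adjusted p = 0.037), and their sum was 6422 to 9536 and 2678 to 16114 CPM. The part of any of these cells in each receptor's change was not tested, but the receptor levels were also expressed relative to the summed enteroendocrine markers.

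Relative to the enteroendocrine markers, 8 of the 9 receptors showed no difference between conditions that passed an exact permutation test over the 8 libraries. The test is two-sided with 70 assignments and a smallest possible p of 0.0286, and the 9 p-values are unadjusted. Its assignments ignore the littermate pairs, and a version that keeps the pairs was not run. Chga and Chgb made up most of the marker sum, with means of 2411 and 3824 CPM in Conventionalized and 10631 and 14812 CPM in Germfree libraries. The scale thus rests mainly on these 2 genes, and Chga was among the closest genes to Ffar2. Ffar2 was the steadiest, at 8.30 ± 1.23 CPM per 1000 CPM of markers in Conventionalized and 7.62 ± 0.929 in Germfree animals (log2 difference 0.13, exact permutation p = 0.4). Sstr5 was at 4.10 ± 1.36 and 5.14 ± 1.55 (-0.31, exact permutation p = 0.314). Gpr119 was at 0.656 ± 0.421 and 0.709 ± 0.237 (-0.16, exact permutation p = 0.857). Ffar1 was at 1.57 ± 0.994 and 1.22 ± 0.365 (0.26, exact permutation p = 0.686). The spread between libraries was wide for Ffar1 and Gpr119, which leaves room for differences of either sign.

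Glp1r kept the most negative difference on this scale, at 0.884 ± 0.531 CPM per 1000 CPM of markers in Conventionalized and 1.70 ± 1.07 in Germfree animals (log2 difference -0.76, exact permutation p = 0.286). It was lower in 3 of 4 pairs. Gpbar1 (log2 difference 0.60, exact permutation p = 0.143), Casr (1.19, exact permutation p = 0.171) and Ffar3 (0.98, exact permutation p = 0.429) had positive differences. Ffar4 was at 4.82 ± 2.36 CPM per 1000 CPM of markers in Conventionalized against 1.18 ± 0.340 in Germfree animals. Its log2 difference was 1.95, positive in all 4 pairs, with no overlap between the groups (exact permutation p = 0.0286, the smallest possible). In CPM the Ffar4 groups overlapped, while the marker sums did not. A gene level in CPM thus comes out higher in Conventionalized animals on this scale through the divisor alone. The share of all genes that would do so was not computed, so the rise is not shown to be particular to Ffar4.

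**Figure D4:**
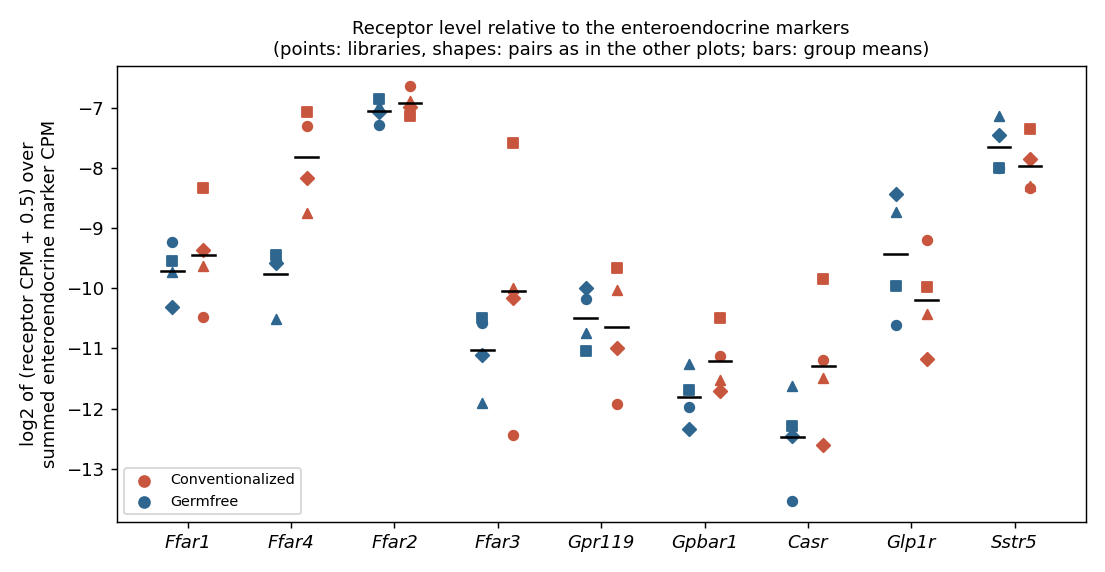
log2 of (receptor CPM + 0.5) over the summed CPM of 22 enteroendocrine markers in each library, with bars for group means and shapes for pairs (circle A, square B, triangle C, diamond D). Ffar2 varies least among libraries, and for Ffar4 all 4 Conventionalized points lie above all 4 Germfree points.

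Some markers of cells outside the epithelium were at levels like those of the receptors. Of 23 leukocyte markers 1 reached the 10 CPM minimum, Kit (28.2 ± 13.7 in Conventionalized and 63.6 ± 29.8 CPM in Germfree libraries), and their sum was 35.8 to 87.0 CPM in Conventionalized and 69.5 to 143 CPM in Germfree libraries, with S100a8 at 0 throughout. Ptprc, which encodes the gated CD45, was at 9.62 ± 8.03 and 11.1 ± 5.69 CPM. The 13 enteric neuron and glia markers summed to 44.3 to 73.4 and 122 to 260 CPM, and Snap25, a vesicle fusion protein, fell from 118 ± 49.0 to 25.04 ± 10.6 CPM (log2 fold change -2.24, adjusted p = 0.00706). The 11 endothelial and stromal markers summed to 6.69 to 44.5 and 39.7 to 69.9 CPM, and Pecam1, which encodes the gated CD31, fell from 19.9 ± 5.69 to 4.999 ± 3.34 CPM (adjusted p = 0.0218). Pecam1 entered the fit through its Germfree libraries alone, with Conventionalized values up to 9.84 CPM, so it could be called in 1 direction only. Stem cell markers summed to 5483 to 10866 CPM in Conventionalized and 946 to 5690 CPM in Germfree libraries, and goblet cell markers reached 50344 CPM in Conventionalized A against 1563 to 8249 CPM in the other 7. The part of any of these cells in the receptor differences was not tested.

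The other receptors for gut peptides gave 3 calls among 5 tested at the 10 CPM minimum, all lower in Conventionalized animals. They were the galanin receptor Galr1 (16.6 ± 7.38 against 86.1 ± 27.3 CPM, adjusted p = 0.00548), the somatostatin receptor Sstr1 (9.61 ± 3.90 against 55.8 ± 25.6 CPM, adjusted p = 0.00587) and the neuropeptide Y receptor Npy1r (6.71 ± 3.77 against 27.4 ± 10.7 CPM, adjusted p = 0.0267). The same 3 were called among the 12 tested at the 1 CPM minimum, where the list median was -1.11. Of all genes 3.76% were called lower at the 10 CPM minimum and 2.34% at the 1 CPM minimum. Of the receptors related to those examined here, the GIP receptor Gipr was at 3.78 ± 1.99 and 8.42 ± 3.75 CPM (limma adjusted p = 0.214 at the 1 CPM minimum). Glp2r was at 0.214 ± 0.169 and 0.120 ± 0.156 CPM. Sstr2 (limma adjusted p = 0.206) and Sstr3 (0.113) did not pass at the 1 CPM minimum. Gipr, Glp2r, Sstr2 and Sstr3 were chosen as relatives after their values were seen. With the littermate block the VIP receptor Vipr1 was also called, higher in Conventionalized animals (155 ± 43.9 against 81.4 ± 47.7 CPM, adjusted p = 0.0495, and 0.169 without the block). With the block at the 1 CPM minimum the list again gave 3 calls.

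Among other receptors for nutrients and metabolites 3 of 20 reached 10 CPM, where 4.92% of all genes were called, and 1 of the 3 was called. That was Lgr4 (84.1 ± 19.9 against 38.04 ± 9.97 CPM, log2 fold change 1.14, adjusted p = 0.037), which is known as an R-spondin receptor of crypt cells and not as a nutrient sensor. Its call was lost in 8 alternative fits, 5 of them with 1 library left out. Gpr35 (19.0 ± 6.51 against 9.10 ± 7.31 CPM, adjusted p = 0.137) did not pass. At the 1 CPM minimum 17 were tested and the lactate receptor Hcar1 alone was called, at 2.84 ± 1.94 in Conventionalized and 22.1 ± 11.1 CPM in Germfree animals (log2 fold change -2.80, limma adjusted p = 0.00957). Hcar1 was chosen after its values were seen, and 2.91% of all genes were called in that fit.

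Of the peptide ligands and enzymes that make or degrade them, 3 of 12 fell at the 10 CPM minimum and 6 with the littermate block, and 0 rose in either fit. The count was 3 with the block at the 1 CPM minimum, 7 with library size only or quality weights, 8 without Germfree C and Conventionalized A together, and 2 to 6 with 1 library left out. The list median was -1.68 against 0.32 for all genes, of which 3.76% fell at the 10 CPM minimum and 5.02% with the block. The prohormone convertase Pcsk1, which can cut GLP-1 out of proglucagon, was at 108 ± 24.5 against 471 ± 180 CPM (adjusted p = 0.00615). The carboxypeptidase Cpe (adjusted p = 0.00982) and the hormone Ghrl (adjusted p = 0.0155) also fell, and Ghrl was called in 6 of 8 fits with 1 library left out (adjusted p up to 0.0618). The ligand genes of Glp1r and Sstr5 did not pass: Gcg was at 283 ± 124 and 829.6 ± 813 CPM (adjusted p = 0.157) and Sst at 3216 ± 1945 and 10390.3 ± 4045 CPM (adjusted p = 0.069, 0.0436 with the block). Dpp4, the peptidase that inactivates GLP-1, was level at 121 ± 26.5 and 119 ± 24.0 CPM (adjusted p = 0.968). Gcg, Sst and Dpp4 were chosen after their values were seen.

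Downstream of the receptors, 5 of 19 G protein and arrestin genes fell and 0 rose, with a list median of -0.39. Over all genes 3.76% fell and 1.16% rose. With 1 library left out 1 to 4 were called, the lowest count being without Germfree A. Gnaz and Gnai1 entered this fit through their 4 Germfree libraries alone, so they could be called in 1 direction only. The alpha subunits Gnaz (5.42 ± 2.16 against 26.4 ± 10.2 CPM, adjusted p = 0.00871), Gnai1 (3.16 ± 1.62 against 18.0 ± 7.91 CPM, adjusted p = 0.0189) and Gnao1 (adjusted p = 0.0299) fell. The more abundant subunits of the same inhibitory class, Gnai2 (178 ± 31.8 against 237 ± 33.8 CPM, adjusted p = 0.322) and Gnai3 (117 ± 35.2 against 94.5 ± 18.7 CPM, adjusted p = 0.545), did not pass. The other 2 were Rgs2 (adjusted p = 0.00899) and Rgs4 (adjusted p = 0.0145), which shorten G protein signals. Rgs4 was called in 5 of 8 fits with 1 library left out and Gnai1 in 3 of the 4 that tested it. The stimulatory subunit Gnas, through which Glp1r, Gpr119 and Gpbar1 act, was level at 611 ± 135 and 545 ± 110 CPM (adjusted p = 0.767). Gnaq, of the class used by Ffar1 and Ffar4, was at 17.7 ± 8.85 and 21.1 ± 1.43 CPM (adjusted p = 0.474). Gnao1, Gnai2, Gnai3, Gnas and Gnaq were chosen after their values were seen.

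Among second messenger enzymes and channels 2 of 22 fell, the adenylyl cyclases Adcy2 (25.1 ± 6.59 against 111 ± 35.7 CPM, adjusted p = 0.00548) and Adcy1 (10.5 ± 4.39 against 48.9 ± 25.7 CPM, adjusted p = 0.0111), and 0 rose. With the littermate block 5 fell and 1 rose. Of the genes that handle the ligands, 1 of 12 fell and 1 rose. The monoacylglycerol lipase Mgll was at 49.4 ± 25.6 against 191 ± 49.4 CPM (log2 fold change -2.08, adjusted p = 0.0103), and the monocarboxylate transporter Slc16a1, which carries short-chain fatty acids, was at 121 ± 41.2 against 42.4 ± 19.4 CPM (1.58, adjusted p = 0.0359). Slc16a1 was called in 2 of the 8 fits without 1 library. With the block 2 fell and 4 rose. Over all genes at this minimum 3.76% fell and 1.16% rose, and 5.02% and 8.08% with the block. The counts of these 2 lists were not tested against those shares.

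**Figure D5:**
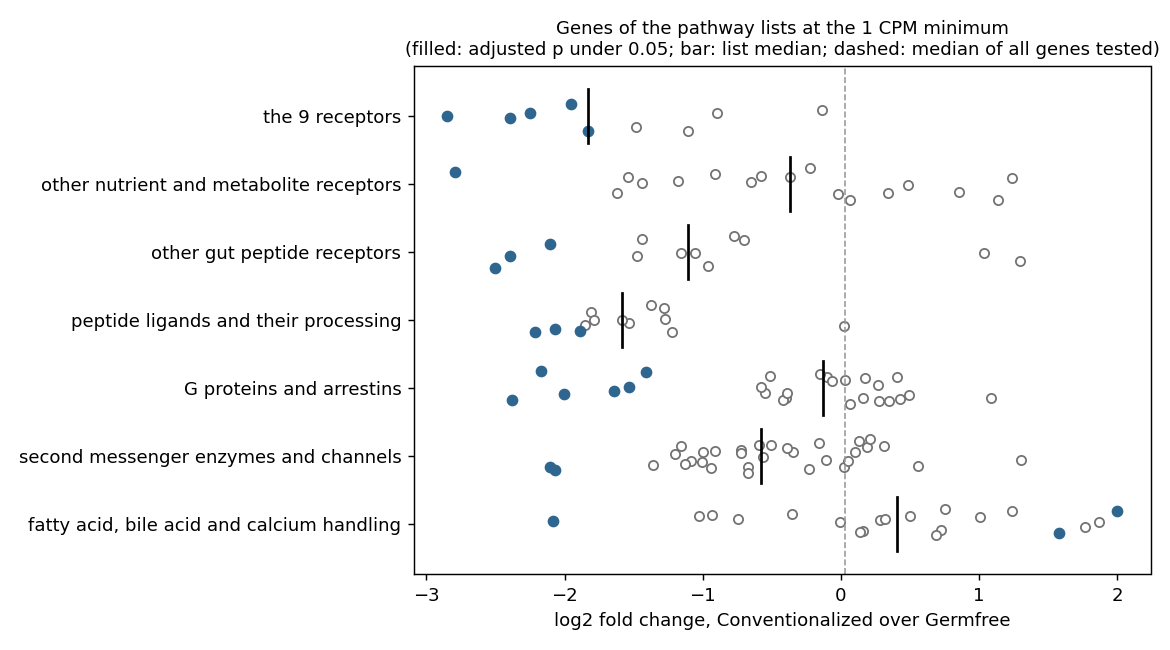
log2 fold change of each gene of the 7 lists from limma at the 1 CPM minimum, filled where the adjusted p was under 0.05, with a bar at each list's median and a dashed line at the median of all genes (0.03). The 9 receptors have the lowest median, -1.83, and the fatty acid, bile acid and calcium handling genes a positive one, 0.41.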

How the data were processed

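RNA was measured in 8 libraries that the authors prepared (10 ng input, SMARTer and Nextera XT chemistry) and read single-end at 100 bp, per the labels' protocols. The submitters' processing notes name mm10, STAR 2.4.2a, Trimmomatic 0.36, DESeq2 1.12.4 and R 3.3.1, and the series text names Salmon and edgeR. The deposited values are a signal per gene normalized by the authors, not raw counts. This was read from the values: 99.8% of values above 0 in genes with 1 annotated transcript were whole multiples of 1 step per library (tolerance 0.02), against 22.9% in genes with several. Whole reads could therefore not be recovered for the table, and count tests were not run. Ffar2, Ffar3, Casr and Sstr5 carry such gene-specific factors.

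Deposited totals divided by the step gave approximate depths of 6209041 to 19139683 reads. All 8 columns matched a label title, and 48058 of 48440 genes a GENCODE M21 symbol. The signal was scaled to CPM with TMM factors (trims 30% and 5%) in R 4.3.3 and tested as log2(CPM + 0.5) with limma 3.58.1 (trend, robust, condition only). The procedure was checked on simulated data. PCR reads without molecular identifiers are not independent molecules, so floors cover counting error only. The Germfree library of pair C stood apart, with a median correlation of 0.792 with its group against 0.871 to 0.943 in the others.

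The labels name littermates, so the design pairs the libraries. Correlations of paired deviations were 0.14, -0.16, 0.31 and -0.01 for pairs A to D. The block was fitted as an alternative in limma and stands beside a result where it changed a call. The exact permutation tests ignored the pairs throughout.

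The receptors and lists were chosen with earlier results of these data known. Named genes are the 9 receptors, from each other list up to 4 called genes with the lowest p or, with fewer than 2 calls, the 2 lowest, the 3 genes closest to each receptor, and Chga, Chgb and Neurod1. A gene that this rule names is not reported here. Others named were chosen after their values were seen.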

Additional observations from a re-analysis of the deposited data

Results flagged for a closer look

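Casr in the Germfree library of pair C, at 10.8 CPM, was far from the other 3 Germfree libraries, which held 2.997 to 4.14 CPM. The gap to the nearest library took 0.853 of the group's range, above Dixon's 95% critical value of 0.829 for 4 samples. This was 1 of 18 groups of receptor values examined, and chance flags about 1 in 20.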

How the results depend on the processing

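The calls of Glp1r, Ffar2 and Sstr5 held in each of the 16, 18 and 18 alternative fits in which they were tested, with log2 fold changes of -3.18 to -2.34, -2.19 to -1.56 and -2.65 to -1.97. Ffar1 was called in 10 of 18 and Gpr119 in 10 of 13, always with a negative sign. Receptors called numbered 5 in the main analysis, 2 to 4 with 1 library left out and 3 without the Germfree library of pair C and the Conventionalized library of pair A. Part of this drop is genes that fell below the 10 CPM minimum and were not tested. With 1 library left out, Gpr119 was tested in 4 fits and Glp1r in 7, Glp1r being untested without Germfree C. Of all genes 495 were called (117 higher and 378 lower in Conventionalized animals), and with 1 library left out 182 to 782 (14 to 410 higher, 151 to 372 lower). Library quality weights gave 1373 calls (765 higher, 608 lower), the littermate block 1317 (812 higher, 505 lower) and the block at the 1 CPM minimum 977 (434 higher). Higher genes numbered 45 with no filter, 263 with upper-quartile scaling and 235 without those 2 libraries. Calls in the other 6 lists numbered 16, and 31 with quality weights, 28 with the block, 25 with the block at 1 CPM and 8 to 19 with 1 library left out. Relative to the enteroendocrine markers, the log2 difference of Ffar4 was 1.70 to 2.26 with 1 library left out; its exact permutation p was 0.0571 without any 1 Germfree library. For Ffar3 that difference ran from 0.16 to 1.78, with an exact permutation p of 0.0286 without the Conventionalized library of pair A. The block changed no call among the 9 receptors at the 10 CPM minimum, and at the 1 CPM minimum it lost Ffar1 (adjusted p = 0.0525). The causes were not tested. Gpbar1 and Casr reached none of the fits at the 10 CPM minimum, and Ffar3 reached 1, with library size only (log2 fold change -1.29, limma adjusted p = 0.2997).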

Other observations

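Genes on either side of the Ffar cluster were low and overlapped between conditions. Cd22, a B cell gene, lies upstream of Ffar1 on the same strand (chromosome 7, 30865402 to 30880342). It held 2.16 ± 1.91 CPM in Conventionalized and 2.43 ± 1.53 CPM in Germfree animals. Krtdap, downstream of Ffar2 on the opposite strand, was at 0.248 ± 0.160 and 0.475 ± 0.353 CPM.

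The genes below lie outside the naming rule and were chosen after their values were seen. S100g and Rgs17 were called at the 1 CPM minimum, and Napepld was not (limma adjusted p = 0.0919). The calcium-binding protein S100g, a vitamin D target of the absorptive epithelium, held 16.6 ± 5.89 CPM in Conventionalized and 3.83 ± 1.72 CPM in Germfree animals (limma adjusted p = 0.0267). Rgs17, a regulator of inhibitory G proteins, was at 2.79 ± 1.30 and 13.1 ± 5.84 CPM (limma adjusted p = 0.0322). Napepld, an enzyme that makes the Gpr119 ligand oleoylethanolamide, was at 24.9 ± 7.39 and 10.6 ± 4.26 CPM without overlap (adjusted p = 0.0751 at the 10 CPM minimum, and 0.0335 there with the littermate block).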
